A study of Mus musculus with 16 samples.

Results

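The genes examined were the corticosteroid receptors and a group of classical genes that corticosteroid hormones switch on, 10 genes in all of the 40481 listed in the count table. They were taken by gene name: Nr3c1, Nr3c2, Fkbp5, Sgk1, Tsc22d3, Zbtb16, Ddit4, Cdkn1a, Errfi1 and Mt1. All 10 passed the filter on low counts and were among the 14949 genes tested. The 10 names were chosen without use of measured values, although earlier results of these data were known at that time.

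Corticosterone, the main glucocorticoid of the mouse, crosses from blood into brain and binds a pair of nuclear receptors. The mineralocorticoid receptor (Nr3c2) binds it tightly and is occupied at resting hormone levels, while the glucocorticoid receptor (Nr3c1) binds it less tightly and fills during stress and at the daily peak. The occupied receptors bind glucocorticoid response elements in DNA and raise the transcription of nearby genes, among them Fkbp5, Sgk1 and Tsc22d3, whose brain levels are widely read as a record of recent hormone exposure.

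RNA was sequenced from the brains of 16 male C57BL mice (C57BL/6J in the study's methods) bought at 18 months of age, 8 treated with adropin(34-76) and 8 with saline. Adropin(34-76) is a synthetic peptide of residues 34 to 76, the part of the adropin protein thought to be secreted, and it was injected into the abdomen once a day at a dose of 90 nmol/kg/d. Injections ran for 2 wk before behavioural testing and went on during it. Saline mice received the diluent of the peptide, saline with bovine serum albumin, at the same morning hour. Neither group was left uninjected, so both had the same handling, 2 wk of acclimation, behavioural tests and terminal fast of 6 h, and each mouse stood for 1 replicate. Corticosterone in blood was not among the measurements used here, and the comparison asks how the hormone-responsive genes stood in treated against diluent-injected mice.

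Total counts ran from 35026503 to 70314050 per mouse, the highest being adropin mouse 1_3. Each mouse is named here by its label, 2 numbers that the labels do not explain. All 6 neuron markers examined passed the filter and their summed level ran from 6617 to 8085 CPM (counts per 1000000, scaled by TMM size factors), as a brain sample should show. The 5 pituitary markers were below the filter, with a summed level of at most 0.628 CPM in any mouse and Cga and Lhb at 0 throughout. Saline mouse 8_3 stood apart, with a summed choroid plexus marker level of 2470 CPM against 330 CPM in the next mouse, and of cerebellar markers 406 CPM against 38.3 CPM. Results that rest on this mouse are given with and without it.

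The promoter windows of 4 genes are shown: Sgk1 and Mt1 for their glucocorticoid response elements, and Errfi1 and Ddit4 as genes lower at an unadjusted p below 0.05 whose windows held another of the motifs searched. Windows came from RefSeq on GRCm38.p6, each with 250 bases before and 50 after an annotated start, and 17 windows of 8 genes were matched, with none for Nr3c1 and Zbtb16. They were searched on both strands for the receptor half-site TGTTCT, the full glucocorticoid response element (the half-site preceded by its reverse complement, 3 bases apart), a relaxed form of it (GNACA and TGTNC, 3 bases apart, which every full element also matches), the metal response element TGCACNC or TGCGCNC and the cyclic AMP response element TGACGTCA. Capitals mark the matches, positions count from the start as 0, and a match is a description of the letters and not evidence of binding.

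Of 6 Sgk1 windows, 1 for each annotated start, that at chr10:21993640-21993939 on the plus strand held the full glucocorticoid response element from -189 to -175, and a further half-site from -242 to -237. The other 5 held neither the full nor the relaxed element.
Sgk1: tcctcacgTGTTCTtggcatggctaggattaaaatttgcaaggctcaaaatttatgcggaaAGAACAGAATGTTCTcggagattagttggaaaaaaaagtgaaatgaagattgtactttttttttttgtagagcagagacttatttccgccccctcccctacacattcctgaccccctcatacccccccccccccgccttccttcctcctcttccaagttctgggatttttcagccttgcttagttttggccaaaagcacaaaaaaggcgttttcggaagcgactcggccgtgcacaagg
The Mt1 window, chr8:94178839-94179138 on the plus strand, held the relaxed element from -94 to -82, and metal response elements at -23, 2 and 20.
Mt1: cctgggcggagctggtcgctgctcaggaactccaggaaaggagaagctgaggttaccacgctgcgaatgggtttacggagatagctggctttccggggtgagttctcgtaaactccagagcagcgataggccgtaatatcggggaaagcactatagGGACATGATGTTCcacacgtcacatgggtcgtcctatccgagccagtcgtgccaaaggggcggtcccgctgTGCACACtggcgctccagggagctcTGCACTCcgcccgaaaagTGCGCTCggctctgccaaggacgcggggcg
Of 2 Errfi1 windows, that at chr4:150854820-150855119 on the plus strand held the cyclic AMP response element from -51 to -44, and the other none of the motifs.
Errfi1: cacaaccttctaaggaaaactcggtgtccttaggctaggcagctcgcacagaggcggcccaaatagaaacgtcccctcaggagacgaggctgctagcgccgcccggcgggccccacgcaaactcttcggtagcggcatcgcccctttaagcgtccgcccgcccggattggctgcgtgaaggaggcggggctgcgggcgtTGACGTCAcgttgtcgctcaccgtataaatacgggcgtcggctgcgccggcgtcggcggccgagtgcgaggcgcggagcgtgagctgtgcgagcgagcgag
The Ddit4 window, chr10:59951721-59952020 on the minus strand, held 1 metal response element from -184 to -178 and no glucocorticoid response element.
Ddit4: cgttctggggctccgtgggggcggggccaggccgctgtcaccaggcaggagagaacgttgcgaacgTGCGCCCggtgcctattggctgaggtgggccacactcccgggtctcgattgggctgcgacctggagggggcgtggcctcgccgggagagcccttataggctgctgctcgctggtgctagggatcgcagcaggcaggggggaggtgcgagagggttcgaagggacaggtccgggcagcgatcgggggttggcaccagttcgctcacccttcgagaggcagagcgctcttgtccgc
The full glucocorticoid response element is rare among promoters, with 3 of 32851 windows (0.00913%) holding it, against 1 of the 17 windows here. The relaxed element was in 0.475% of all windows and in 2 of the 17. The half-site was in 19% of all windows and in 4 of the 17, the metal response element in 25.7% and 4, and the cyclic AMP element in 1.79% and 1. The Fkbp5 and Cdkn1a windows held none of the 5 motifs. Elements that lie outside these windows were not searched.

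Most of the hormone-induced genes had a lower mean in adropin-treated mice, by modest amounts, while the glucocorticoid receptor itself had a higher mean. Of the 10 genes, 8 were lower in adropin, where 7587 of all 14949 genes tested (50.8%) were, and their median log2 fold change was -0.19 against -0.0019 over all genes. At an unadjusted p below 0.05, Ddit4, Cdkn1a and Errfi1 were lower and no gene was higher. Over all genes tested, 2.13% were lower and 1.86% higher by the same criterion, 3.99% in either direction. None of the 10 reached the study's cut-off of a fold change above 1.5 with p below 0.05, which 0.421% of all genes did. None had an adjusted p below 0.05 by edgeR, DESeq2 or limma-voom, the edgeR adjusted p running from 0.874 to 0.885. Across all genes the share with an adjusted p below 0.05 in edgeR's test was 0%, with 596 genes at an unadjusted p below 0.05; DESeq2 gave 2 adjusted calls and limma-voom 0.

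**Figure D1:**
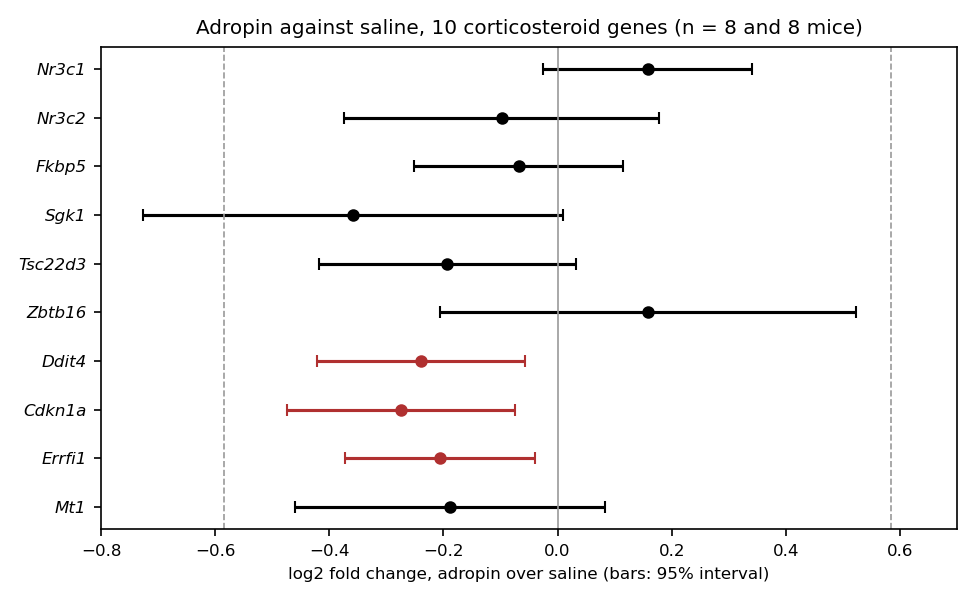
Log2 fold change of adropin over saline (x axis) for each of the 10 genes, with 95% intervals from edgeR's fit to 8 and 8 mice. Red marks an unadjusted p below 0.05 and dashed lines a fold change of 1.5. The points run from -0.36 (Sgk1) to 0.16 (Zbtb16 and Nr3c1), and the intervals of Ddit4, Cdkn1a and Errfi1 lie below 0.

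The glucocorticoid receptor gene Nr3c1 lies on chromosome 18 of GRCm38 (chr18:39410545-39519421, minus strand). Its level was lowest at 72.0, median 96.1 and highest at 115 CPM in adropin-treated mice, and 75.2, 87.0 and 95.6 CPM in saline-treated mice. The adropin mice were the more scattered, 4 of them above every saline mouse and 1 below. Its log2 fold change of 0.16 (standard error 0.087) did not pass (edgeR unadjusted p = 0.0868, exact permutation p = 0.139). Without adropin mouse 4_3, whose 72.0 CPM was the lowest of all, it was 0.22 (edgeR unadjusted p = 0.0119).

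The mineralocorticoid receptor gene Nr3c2 (chr8:76899442-77245012, plus strand) had 33.9, 44.4 and 53.3 CPM as its lowest, median and highest level in adropin, and 30.3, 43.9 and 62.2 CPM in saline. Here the saline mice were the more scattered and spanned the whole range of the adropin mice. The log2 fold change was -0.10 with a standard error of 0.13 and a 95% interval from -0.37 to 0.18 (edgeR unadjusted p = 0.467). The lowest saline value was that of mouse 8_3, and without it the log2 fold change was -0.17 (edgeR unadjusted p = 0.178). A balance of the receptors within each mouse was taken as the ratio of Nr3c1 to Nr3c2 CPM per kilobase of exon. This ratio was 1.46 at the lowest, 1.97 at the median and 2.33 at the highest in adropin, against 1.07, 1.62 and 2.38 in saline. Nr3c1 was thus the more abundant in each of the 16 mice. The ratio did not differ between groups beyond the spread between mice (difference in mean log2 ratio 0.22, two-sided exact permutation test, p = 0.188). Nr3c2 shares 247 exon bases with Gm10649 on the other strand, which leaves its counts uncertain there if counting ignored strand.

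**Figure D2:**
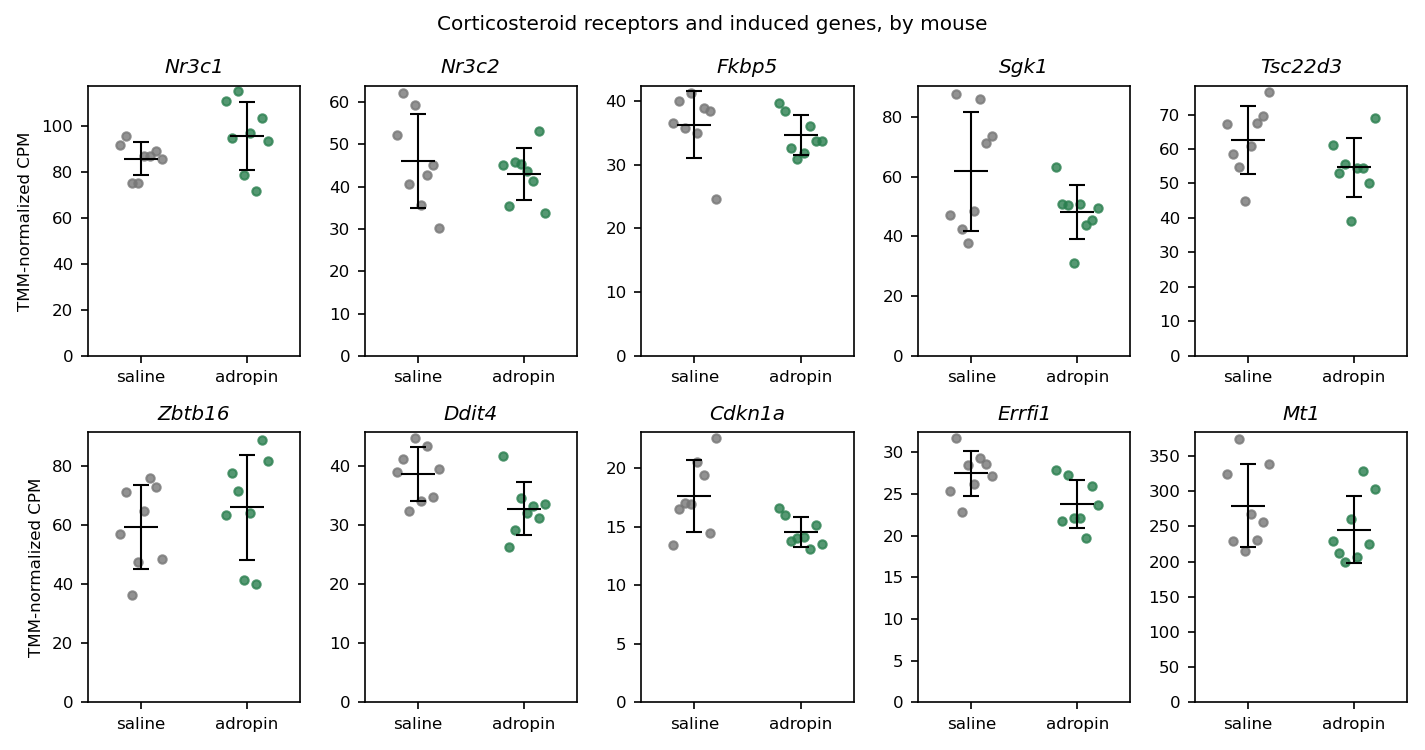
TMM-normalized CPM (y axis, from 0) of the 10 genes in each of 8 saline (grey) and 8 adropin (green) mice, with the mean and SD in black; the horizontal spread of points has no meaning. Saline Sgk1 falls into a lower and an upper group of 4 mice, Fkbp5 has 1 saline mouse at 24.6, and Cdkn1a lies in a narrow band in adropin.

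Fkbp5, Sgk1, Tsc22d3 and Zbtb16 are genes whose response to the receptors is best described. Fkbp5 (chr17:28399094-28517527, minus strand) encodes a co-chaperone that lowers the hormone affinity of the receptor, a short feedback loop. Its level was 30.9, 33.7 and 39.6 CPM (lowest, median, highest) in adropin and 24.6, 37.5 and 41.2 CPM in saline. The lowest saline value belonged to mouse 8_3, and the next saline mouse had 35.0 CPM, above the adropin median. The log2 fold change was -0.07 with a standard error of 0.088 (edgeR unadjusted p = 0.445), and -0.13 without mouse 8_3 (edgeR unadjusted p = 0.0453). Whether Fkbp5 differed at this level therefore rested on that library.

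Sgk1 (chr10:21882184-21999903, plus strand), a kinase that raises sodium transport and acts in oligodendrocytes and neurons, carried the full response element shown above and had the largest fold difference of the 10. It had 31.0, 50.1 and 63.1 CPM (lowest, median, highest) in adropin. In saline the values were 37.7, 59.9 and 87.5 CPM. The saline mice fell apart, with 5_3, 7_1, 8_3 and 8_1 at 71.1 CPM or more, above every adropin mouse, and the other 4 inside the adropin range. The log2 fold change was -0.36 with a standard error of 0.18 and a 95% interval from -0.73 to 0.01 (edgeR unadjusted p = 0.0556, exact permutation p = 0.139). Leaving out each mouse in turn moved its unadjusted p between 0.0157 and 0.148, below 0.05 in 5 of 16 fits. Its call also turned on the method, with an unadjusted p below 0.05 in 4 of 8 other fits: DESeq2 (0.0392), limma-voom (0.0405), library size only (0.0381) and no filter on low counts (0.0405).

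Tsc22d3 (chrX:140539528-140600659, minus strand) encodes GILZ, a leucine zipper protein that carries part of the anti-inflammatory action of glucocorticoids. It had 39.2, 54.5 and 69.0 CPM (lowest, median, highest) in adropin and 45.0, 64.1 and 76.4 CPM in saline, so that the groups overlapped over most of their range. Its log2 fold change was -0.19 with a standard error of 0.11 (edgeR unadjusted p = 0.0877, exact permutation p = 0.128). Leaving out each mouse in turn moved its unadjusted p between 0.0182 and 0.194, below 0.05 in 2 of 16 fits. Of 8 other fits, 1 was below 0.05, limma-voom (unadjusted p = 0.0265). Some of the extreme mice of Tsc22d3 were also extreme in oligodendrocyte markers. Its highest adropin mouse, 7_4, and highest saline mouse, 8_3, also had the highest summed oligodendrocyte markers of their groups (8024 and 8023 CPM), and its lowest saline mouse, 6_1, had the lowest sum of all (2745 CPM). Others were not: adropin mouse 3_3, with the lowest Tsc22d3 of all, had a sum of 3407 CPM, while adropin mouse 1_3, with the lowest sum of its group (2842 CPM), had 61.3 CPM of Tsc22d3, the next to highest of its group. All 6 oligodendrocyte markers had a lower mean in adropin and 0 had an unadjusted p below 0.05, with sums from 2842 to 8024 CPM in adropin and 2745 to 8023 CPM in saline. Without mouse 8_3 the log2 fold change of Tsc22d3 was -0.15 (edgeR unadjusted p = 0.184). The part of these markers in the Tsc22d3 values was not tested, and in bulk tissue fewer cells of a type cannot be told apart from less RNA per cell.

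Zbtb16 (chr9:48654297-48836222, minus strand), a zinc finger transcriptional repressor strongly induced by glucocorticoids in many tissues, differed in sign. It had 40.1, 67.8 and 88.7 CPM (lowest, median, highest) in adropin and 36.2, 60.7 and 75.8 CPM in saline. The spread within each group exceeded the difference between them, at a log2 fold change of 0.16 (standard error 0.17) (edgeR unadjusted p = 0.374). It was the 1 hormone-induced gene of 8 with a higher mean in adropin.

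Ddit4, Cdkn1a and Errfi1, which restrain growth, were the genes lower at an unadjusted p below 0.05. Ddit4 (chr10:59949669-59951834, minus strand) encodes REDD1, an inhibitor of the growth kinase mTORC1 that glucocorticoids, low oxygen and energy stress induce. It had 26.3, 32.6 and 41.6 CPM (lowest, median, highest) in adropin and 32.3, 39.2 and 44.7 CPM in saline. Of the adropin mice 7 lay below the saline median and 4 below every saline mouse, while mouse 1_3, with 41.6 CPM, stood among the higher saline mice. The log2 fold change was -0.24 with a standard error of 0.087 (edgeR unadjusted p = 0.0129, adjusted p = 0.874, exact permutation p = 0.0205). It kept an unadjusted p below 0.05 in each of the 16 fits that left out 1 mouse, with log2 fold changes from -0.29 to -0.19. It was also lower in adropin within each first label number found in both groups, by -0.49, -0.23 and -0.37 on the log2 scale for numbers 2, 5 and 7. Genes of the integrated stress response, whose factor ATF4 also induces Ddit4, were split: of 9 tested, 4 were lower and 5 higher in adropin and none had an unadjusted p below 0.05 in edgeR's test.

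Cdkn1a (chr17:29090976-29100727, plus strand) encodes p21, which blocks the cell cycle and responds both to glucocorticoids and to the tumour suppressor p53. It had 13.1, 14.1 and 16.6 CPM (lowest, median, highest) in adropin and 13.5, 17.0 and 22.6 CPM in saline. The adropin mice lay in a narrow band, all 8 below the saline median, while 5 saline mice exceeded all of them. Its log2 fold change, -0.27, had a standard error of 0.095 (edgeR unadjusted p = 0.00992, adjusted p = 0.874, exact permutation p = 0.0186). Its highest saline mouse was 8_3, and without it the log2 fold change was -0.21 (edgeR unadjusted p = 0.0248). Within first label numbers 2, 5 and 7 the log2 difference was 0.14, -0.14 and -0.52, so its sign was not the same in all. Of 10 other p53 targets tested, 7 were lower and 3 higher in adropin, where 50.8% of all genes tested were lower. At an unadjusted p below 0.05, 2 were lower, as were 2.13% of all genes. They were Btg2 (log2 fold change -0.67), an antiproliferative gene that neuronal activity also induces, and Plk3 (-0.28), a stress-responsive kinase. Neither passed with a block on the first label number, and Btg2 alone passed with a block on the second. Within first label number 5 Btg2 was higher in adropin (log2 difference 0.79), and within number 7 Plk3 was (0.08). Mdm2, the p53 inhibitor and target, had a log2 fold change of -0.12 (edgeR unadjusted p = 0.0559), and the abundant target Ccng1 one of 0.11 (unadjusted p = 0.237). Cdkn1a shares 273 exon bases with AC167363.2 on the other strand.

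Errfi1 (chr4:150853919-150868892, plus strand) encodes MIG6, an inhibitor of the epidermal growth factor receptor. It had 19.7, 22.9 and 27.9 CPM (lowest, median, highest) in adropin and 22.8, 27.8 and 31.8 CPM in saline. Of the adropin mice 7 lay below the saline median and 4 below every saline mouse. The log2 fold change was -0.21 with a standard error of 0.079 (edgeR unadjusted p = 0.0184, adjusted p = 0.874, exact permutation p = 0.0235). The unadjusted p rose to 0.0514 without adropin mouse 4_3 and to 0.0576 without saline mouse 5_3. Within first label numbers 2, 5 and 7 the log2 difference was -0.06, -0.05 and -0.31. The antisense gene 1700045H11Rik overlaps it on the other strand but shares 0 exon bases.

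A fit that took the first label number as a block, and so compares the groups only among mice whose number occurs in both, left Ddit4 alone at an unadjusted p below 0.05 (log2 fold change -0.37, edgeR unadjusted p = 0.00893). In that fit the log2 fold change was -0.14 for Cdkn1a (unadjusted p = 0.397) and -0.13 for Errfi1 (unadjusted p = 0.319).

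Metallothionein 1 (Mt1, chr8:94179082-94180327, plus strand), a small protein that binds zinc and copper, is induced by glucocorticoids and by metal through the factor MTF1. It had 199.5, 226.6 and 328 CPM (lowest, median, highest) in adropin and 214.7, 261.6 and 374 CPM in saline. The groups overlapped widely, at a log2 fold change of -0.19 (standard error 0.13) (edgeR unadjusted p = 0.163). Its neighbours on the same strand pointed the same way without passing, Mt2 with a log2 fold change of -0.25 (edgeR unadjusted p = 0.0744) and Mt3 with -0.22 (unadjusted p = 0.124). Without adropin mouse 4_3 both were below 0.05 (0.0197 and 0.0433). Of Mt2 and Mt3, Mt2 alone was below 0.05 without saline mouse 5_3 or 6_1, with limma-voom and with a block on the second label number. Mt1 itself was below 0.05 in 1 fit, limma-voom (unadjusted p = 0.0481). Mtf1 itself was level at 0.01. Mt1 was highest in adropin mouse 4_3 and in saline mouse 5_4. These were also the mice lowest in their groups for Nr3c1, Zbtb16 and Errfi1.

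Levels of different genes were compared as CPM per kilobase of exon in saline-treated mice. Mt1 was far the most abundant at 224 ± 47.1, followed by Ddit4 at 22.0 ± 2.56 and Tsc22d3 at 14.4 ± 2.27 CPM per kilobase (SD, n = 8). Then came Sgk1 at 12.6 ± 4.09, Zbtb16 at 11.2 ± 2.69 and Nr3c1 at 11.2 ± 0.949 CPM per kilobase. The lower end held Errfi1 at 7.66 ± 0.760, Nr3c2 at 7.10 ± 1.72, Cdkn1a at 4.95 ± 0.862 and Fkbp5 at 3.83 ± 0.549 CPM per kilobase. The ranges of saline mice separated Mt1 from Ddit4, Ddit4 from Tsc22d3 and Nr3c1 from Errfi1, while all other neighbours in this order overlapped. In adropin-treated mice Ddit4 and Tsc22d3 overlapped too, and Nr3c2 and Cdkn1a did not.

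Beyond the 10 genes, the machinery of the receptors was examined in lists of named genes. Over all genes tested 50.8% were lower, and at an unadjusted p below 0.05, 2.13% were lower and 1.86% higher. The chaperones that hold the receptors ready for hormone showed little difference, with 9 of 12 lower and none at an unadjusted p below 0.05 in edgeR's test, and a median log2 fold change of -0.05. The most abundant, Hsp90ab1, had 1523 ± 80.8 CPM in adropin and 1554 ± 72.8 CPM in saline (SD, n = 8 each). All 11 coregulators, which the bound receptors recruit to chromatin, had a higher mean in adropin, with a median log2 fold change of 0.12. Of all 14949 genes tested, 7362 were higher. Crebbp, a histone acetyltransferase, had a log2 fold change of 0.14 (edgeR unadjusted p = 0.0297, exact permutation p = 0.0222). Ncor1, a corepressor, had one of 0.13 (edgeR unadjusted p = 0.0438, exact permutation p = 0.0448). The other 9 coregulators did not pass. Neither call held with the first or the second label number as a block, and none of the 11 passed without adropin mouse 1_3, adropin mouse 5_5 or saline mouse 6_1. Without saline mouse 5_3, 5 passed, while the genes higher over all 14949 went from 278 to 632. Without mouse 8_3 Crebbp passed (edgeR unadjusted p = 0.0364) and Ncor1 did not (0.0720). Ncor1 passed in 8 and Crebbp in 13 of the 16 fits that left out 1 mouse.

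Genes that set the hormone supply did not pass in either direction with all mice and the filter on low counts. Of 6 tested genes of corticosteroid metabolism and transport, 3 were lower and 3 higher. Hsd11b1, which regenerates active corticosterone inside cells, had a log2 fold change of -0.17 (edgeR unadjusted p = 0.197). Abcb1a, the efflux pump of the blood-brain barrier, had one of 0.16 (unadjusted p = 0.284). Of the hypothalamic-pituitary-adrenal signals and receptors, 5 of 11 were abundant enough to test. The releasing hormone Crh (log2 fold change -0.10, edgeR unadjusted p = 0.562) and its receptor Crhr1 (0.05, unadjusted p = 0.652) were among those that did not pass. Crhr2 was below 0.05 without saline mouse 2_3 (0.0458) or 8_1 (0.0468), and 2 genes under the filter, Avp and Ucn3, were when no filter was used. Saline mouse 5_3 was far the highest for both. It held 61 of all 87 Ucn3 counts, and had 4.15 CPM of Avp against at most 1.29 CPM in any other mouse.

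Among other corticosteroid-induced genes, 20 of 23 tested had a lower mean in adropin, with a median log2 fold change of -0.24 and a range from -0.60 to 0.08, where 50.8% of all genes tested were lower. Per1, Dusp1, Cebpb, Tiparp and Arl4d were lower at an unadjusted p below 0.05, which 2.13% of all genes were, and none was higher. With no filter on low counts, 1 gene of this list was higher at that level. Dusp1, a phosphatase that switches off stress kinases, passed the fold change cut-off as well, at -0.60 (edgeR unadjusted p = 0.00468, exact permutation p = 0.0160), though in 8 of the 16 fits that left out 1 mouse, and in the fit blocked on first label number, its fold change was under 1.5 (log2 fold change up to -0.52 and -0.48). It overlaps Ergic1 on the other strand. The study had already named Dusp1 in an AP-1 network enriched among genes responding to treatment in these mice, so its call here is not independent of that result. Cebpb, a transcription factor of inflammation and metabolism near the filter at 2.65 ± 0.657 CPM in saline (SD, n = 8), had -0.47 (edgeR unadjusted p = 0.00467, exact permutation p = 0.00451). Per1, a clock gene, had -0.26 (edgeR unadjusted p = 0.0327, exact permutation p = 0.0632), Tiparp, an ADP-ribosyltransferase, -0.43 (edgeR unadjusted p = 0.00662, exact permutation p = 0.0171), and Arl4d, a small GTPase, -0.44 (edgeR unadjusted p = 0.0184, exact permutation p = 0.0342). Each of these genes had an edgeR adjusted p of 0.874. With a block on the first label number, Tiparp kept an unadjusted p below 0.05 (0.0284) and the other 4 did not, and with one on the second number Per1 (0.202) and Tiparp (0.0693) did not. Per1 passed in 8 of the 16 fits that left out 1 mouse and the other 4 in all 16. Within first label number 5, Dusp1 and Arl4d were higher in adropin, by 0.32 and 0.10 on the log2 scale. Dusp1 and Per1, like Btg2 above, are also induced by neuronal activity without hormone. The other genes were not sorted by what else induces them, and which inducer acted was not tested. The most abundant induced genes lay close to no difference, at a log2 fold change of -0.0044 for Glul, -0.0057 for Rhob and -0.03 for Klf9, the last a well described receptor target of neurons. Pdk4, a fasting-responsive target, was at 0.04.

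**Figure D3:**
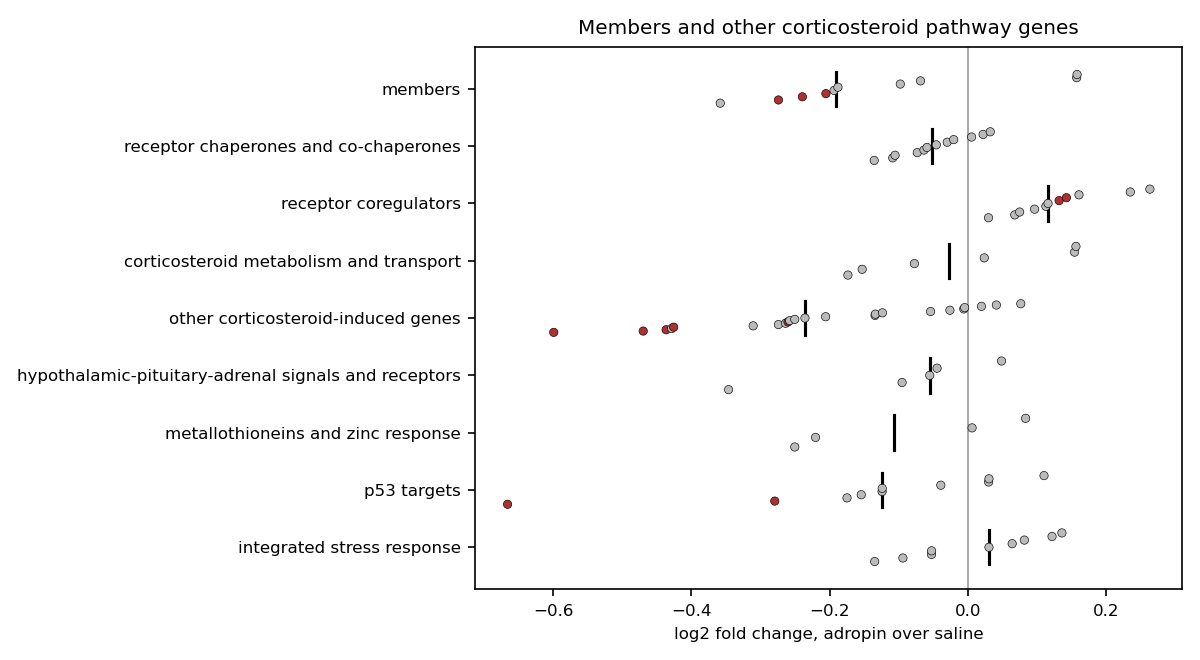
Log2 fold change of adropin over saline (x axis) for each tested gene of the 10 described genes (members) and 8 further lists, 1 point a gene, red for an unadjusted edgeR p below 0.05, with a black bar at the list's median. The medians run from -0.24 for other induced genes to 0.12 for coregulators, and every coregulator lies above 0.

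Mice high in 1 of these genes were not in general high in the rest. Over the 45 pairs of the 10 genes, with group means subtracted, Pearson's r of log2 CPM over 16 mice was above 0 in 30 and had a median of 0.12. Nr3c1 and Errfi1 had r = 0.762 (permutation p = 0.00109, adjusted p = 0.0490 over 45 pairs), Spearman's rho = 0.738 (permutation p = 0.00372, adjusted p = 0.167), and r = 0.690 without adropin mice 4_3 and 3_3, which were farthest from the median. Nr3c1 and Zbtb16 had r = 0.749 (permutation p = 0.00219, adjusted p = 0.0493), rho = 0.538 (permutation p = 0.0399, adjusted p = 0.180), and r = 0.542 without the same mice. No pair passed on both measures. Fkbp5 and Ddit4 had r close to 0 with Nr3c1, at 0.06 and 0.01. Cdkn1a had r = 0.12 with Nr3c1, from 0.525 among adropin and -0.199 among saline mice, a difference that was not tested.

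**Figure D4:**
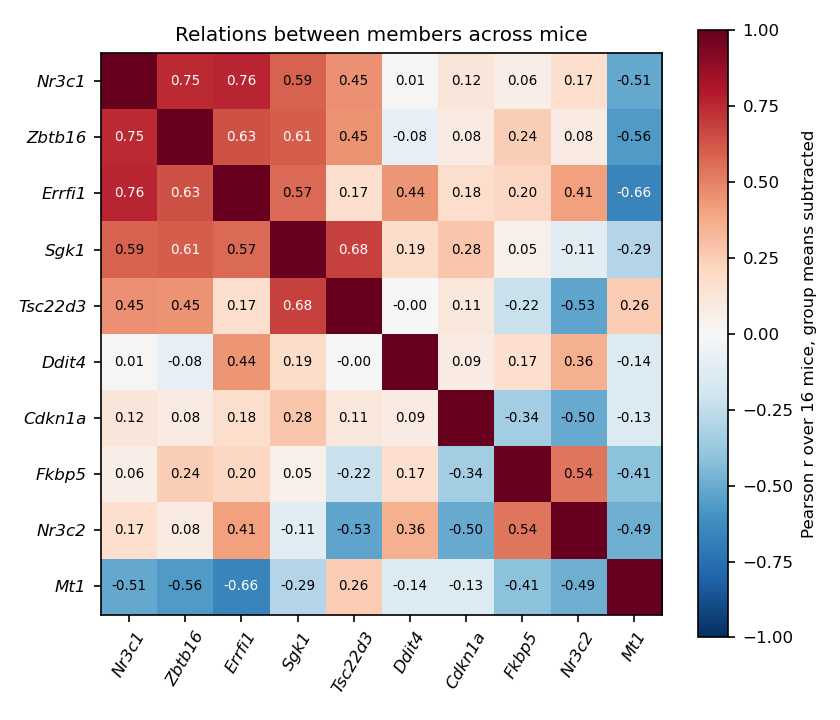
Pearson's r between each pair of the 10 genes over 16 mice after subtracting group means (colour scale from -1 to 1; both axes list the genes). Nr3c1, Zbtb16, Errfi1 and Sgk1 form a block of positive values from 0.57 to 0.76, and Mt1 is negative with every gene but Tsc22d3.

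The genes most like each receptor across the 16 mice, by Pearson's r with group means subtracted and given as a description, were Megf10 (0.966), Pik3r1 (0.950) and Chrm3 (0.946) for Nr3c1. For Nr3c2 they were Sipa1l3 (0.931), Galnt17 (0.918) and the glutamate receptor gene Gria1 (0.915). Fkbp5 was closest to Ptk2b (0.830), Unc5a (0.825) and 2010300C02Rik (0.810), Sgk1 to Git2 (0.885), Rab30 (0.871) and Cdr2l (0.834), and Tsc22d3 to Adamtsl5 (0.947), Zfp385a (0.946) and Esyt1 (0.927). None of the other 9 genes was among them for any of these 5.

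Single mice accounted for many of the extreme values. Adropin mouse 1_3, the most deeply sequenced, was the highest of its group for Fkbp5, Sgk1, Ddit4, Cdkn1a and Errfi1. It also had 18.8 CPM of Lcn2, one of the other induced genes and below the filter, against at most 1.64 CPM in any other mouse. Without mouse 1_3, Ddit4 had a log2 fold change of -0.29 (edgeR unadjusted p = 0.00193) and Sgk1 one of -0.42 (unadjusted p = 0.0327). Saline mouse 6_1 was the highest of its group for Fkbp5 and Ddit4 and the lowest for Sgk1, Tsc22d3 and Mt1. Without it, 5 genes were lower at an unadjusted p below 0.05, Sgk1 (0.0157) and Tsc22d3 (0.0182) joining the other 3, while the genes lower over all 14949 went from 318 to 405. Without mouse 8_3, the choroid plexus outlier, Ddit4, Cdkn1a, Errfi1 and Fkbp5 were lower at that level. Choroid plexus markers were lower in adropin for 5 of 5 tested, all at an unadjusted p below 0.05, with sums from 11.9 to 74.5 CPM in adropin and 13.5 to 2470 CPM in saline (exact permutation p of the mean log2 sum = 0.343). Without mouse 8_3 the highest saline sum was 330 CPM, and Kl and Prlr alone of the 5 had an unadjusted p below 0.05. Hippocampal markers were lower for 6 of 6, with sums from 361 to 730.2 CPM in adropin and 398 to 803 CPM in saline, and neuron markers higher for 6 of 6, and 0 of either list had an unadjusted p below 0.05. Of 5 microglia markers all were higher and 1, Cx3cr1, passed at that level. Of endothelial markers 5 of 5 were higher, and of blood markers 4 of 5 and of astrocyte markers 2 of 6 were lower, with 0 at that level. Both cerebellar markers tested were lower, Car8 with a log2 fold change of -1.40 (edgeR unadjusted p = 0.0338), which was 0.20 without mouse 8_3 (unadjusted p = 0.0831). The part of these cell types in the values above was not tested. Over all genes tested 50.8% were lower. At an unadjusted p below 0.05, 2.13% were lower and 1.86% higher.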

How the data were processed

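Total RNA from 16 mouse brains was poly-A selected and sequenced. The authors mapped reads to the Ensembl mouse assembly (STAR) and deposited unnormalized counts from featureCounts, for reads that mapped uniquely to 1 gene. Whether counting used strand is not given in the sources used here. The authors' CPM table was not used. Repeated entries (276 of 40757) and 355 ribosomal RNA genes were left out, and a gene was tested if above 1 CPM in 7 or more mice. The 14949 genes were compared with TMM factors by edgeR 4.0.16 (R 4.3.3) quasi-likelihood tests, Benjamini-Hochberg adjusted over all. Exact permutation tests, two-sided, covered 12870 divisions of the mice on mean log2 TMM CPM (prior count 2), and relations used 100000 permutations within groups. Levels per kilobase, coordinates and overlaps came from GENCODE M21 on GRCm38.

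The 10 genes and all lists were chosen with earlier results of these data known. Genes named were the 10, list genes with an unadjusted p below 0.05, up to 3 abundant genes of each list, the 3 genes most like 5 of the 10, and overlapping genes. Pdk4, Lcn2, Avp, Ucn3, Crhr2, Atf3, Ergic1 and the cell type markers, outside this rule, were named after their values were seen. Alternatives were DESeq2 1.42.0, limma-voom with quality weights (limma 3.58.1), DESeq2 size factors, library size only, 2 other filters, each label number as a block, and leaving out each mouse. The edgeR fit alone was tested on simulated counts, with the outcome not given here. The main fit has no block, as the study's methods state no covariate. Same-numbered mice of the 2 groups had r from -0.272 to 0.217 (first number, 5 pairs), too few pairs to exclude a shared effect. First numbers 1, 3 and 4 occurred only in adropin and 6 and 8 only in saline. For those mice treatment and number cannot be told apart. Cebpb had only 62 to 141 counts per mouse, and the part of counting error in its spread was not tested.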

Additional observations from a re-analysis of the deposited data

Results flagged for a closer look

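Fkbp5 in saline mouse 8_3 was far from the other saline mice. Its 24.6 CPM was 0.627 of the group's whole range below the nearest mouse (35.0 CPM), past the 95% critical value of Dixon's test for 8 samples. Chance gives such a mark in about 1 in 20 groups, and 38 combinations of gene and group were examined. Without this mouse the log2 fold change of Fkbp5 was -0.13 (edgeR unadjusted p = 0.0453), against -0.07 with it. The same mouse had the highest summed choroid plexus and cerebellar markers, and their part in its Fkbp5 level was not tested.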

How the results depend on the processing

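All 10 genes kept their direction in every fit. The number lower at an unadjusted p below 0.05 was 3 by edgeR and 6 in the limma-voom fit, where Sgk1, Tsc22d3 and Mt1 joined. It was 1 with a replicate block on the first label number. Over all 14949 genes the number lower went from 318 to 578 and 195 in the same fits. For the 10 genes it ranged from 2 to 5 when each mouse was left out, the 5 without saline mouse 6_1. The number higher, 0 by edgeR, was 1 with limma-voom (Nr3c1) and ranged from 0 to 1 when each mouse was left out. It was 1, Nr3c1, without adropin mouse 3_3, adropin mouse 4_3 or saline mouse 5_3. Over all genes the number higher, 278 by edgeR, was 721 with limma-voom and 488, 921 and 632 without these mice. The number past the fold change cut-off, and the number with an adjusted p below 0.05, stayed at 0 in every fit, leave-one-out fits (0 to 0) included. The cause of these moves was not tested, except that the first-number block uses fewer mice. Coregulators higher at that level, 2 by edgeR, were 0 under either block, and p53 targets lower, 2 by edgeR, were 0 under the first-number block and 1 under the second. A block on the second label number left Ddit4, Cdkn1a and Errfi1 each lower at an unadjusted p below 0.05, the same count of 3. The second number gave 17 cross-group pairs with correlations from -0.561 to 0.299, and its meaning is not in the labels. The number of other induced genes lower at an unadjusted p below 0.05, 5 by edgeR, was 2 under the first-number block, 10 with limma-voom, 8 without adropin mouse 4_3 and 11 without saline mouse 6_1, while over all genes the number lower went from 318 to 195, 578, 524 and 405. The number of other induced genes higher, 0 by edgeR, was 1 with no filter, where 841 of all 30210 genes were higher at that level. Metallothionein and zinc response genes lower, 0 by edgeR, were 2 without adropin mouse 4_3. Hypothalamic-pituitary-adrenal genes lower, 0 by edgeR, were 2 with no filter, both far the highest in saline mouse 5_3, and 1 without saline mouse 2_3 or 8_1. Chaperones lower, 0 by edgeR, were 1 with limma-voom, and integrated stress response genes lower were 1 with either other filter, which admits Atf3.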
